A study of Drosophila melanogaster with 56 samples.

Results

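The factors treated here are 4 transcription factors linked to the activation of the zygotic genome of *Drosophila melanogaster*: *zld* (FBgn0259789), *Trl* (FBgn0013263), *Clamp* (FBgn0032979) and *Stat92E* (FBgn0016917). They were taken by their gene IDs as known activators, with earlier results of these data in view, as 4 of the 17558 genes counted in every library, and all 4 were among the 11065 genes that had enough counts to be tested. The RNA came from whole embryos of wild-type Oregon R flies, which were laid within 30 min windows in population cages at 25 °C and then left to develop without any treatment or transgene. Polyadenylated RNA was sequenced from 4 biological replicates at each of 14 time points, hourly up to 6 h after egg-laying and from there every 2 h up to 20 h, which gave 56 libraries. The comparisons below ask when in embryogenesis the mRNA of each activator was high or low, and whether the 4 shared a course. Since each library holds RNA of the whole embryo, fewer cells of a type and less RNA per cell cannot be told apart.

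The early embryo runs on mRNA and protein that the mother placed in the egg, and transcription of its own genome starts broadly during the last nuclear divisions before cell membranes form. Zelda, the product of *zld*, is a zinc-finger protein of the pioneer kind, which binds its sites in closed chromatin and makes early zygotic enhancers accessible. The GAGA factor encoded by *Trl* and the zinc-finger protein CLAMP bind GA-rich repeats, the former with chromatin remodellers and the latter also at the male X chromosome and the histone genes. Stat92E is the only STAT protein of the fly and carries the signal of the JAK/STAT pathway into the nucleus, where it acts on early patterning genes.

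Counts on genes were between 13422473 and 22536043 per library, with a median of 16709770, and 3 counts corresponded to 0.133 to 0.224 CPM, a unit in which all counts on genes of a library sum to the same total. The members stood far above this limit, with 781 to 12452 counts for *zld*, 192 to 1589 for *Trl*, 1456 to 8306 for *Clamp* and 1905 to 11441 for *Stat92E*. Levels are given as RPKM, which are CPM values set against the length of the exons of a gene, and stage was checked with marker genes. Summed CPM of the maternal mRNAs *osk*, *bcd* and *pgc* ran from 1157 to 1675 at 0 h and from 4.90 to 12.6 at 20 h, while the muscle genes *Mhc*, *Mlc2* and *up* ran from 6968 to 12917 at 20 h. Some libraries stood apart from others of their time point in such markers. At 0 h, the muscle genes summed to between 591 and 676 CPM in replicates 1 to 3 and to 43.6 CPM in replicate 4. At 14 h, replicate 2 had 293 CPM of the neuronal genes *elav*, *nSyb*, *Syt1* and *brp*, against 439 to 672 CPM in the other replicates. At 18 h, the muscle genes summed to 1221, 2134 and 2756 CPM in replicates 1 to 3 and to 7806 CPM in replicate 4. No fit left out replicate 4 at 18 h alone. At 20 h, genes of the cuticle summed to 228 and 58.0 CPM in replicates 1 and 2, but to 1725 and 1474 CPM in replicates 3 and 4. The 3 h libraries, which touch most of the results, are described with them.

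All 4 genes lie on the minus strand of the BDGP6 genome. The annotation limits what the counts of *Trl* can say, and those of *Clamp* only if the counting ignored strand. *zld* lies on chromosome X from 19766465 to 19783548, with 5 transcripts and 10605 exon bases. *Stat92E* lies on 3R from 20535323 to 20552311, with 11 transcripts and 5210 exon bases, and neither gene shares exon sequence with another. *Clamp* lies on 2L from 22165720 to 22169143, with 2 transcripts and 2897 exon bases, of which 502 (17.3%) lie under exons of *CG42748* on the opposite strand. Such bases are countable where strand was kept. Of 135 genes wholly under exons of the opposite strand, 66 had a mean of over 1 count. *Trl* lies on 3L from 14747929 to 14761049, with 10 transcripts and 6254 exon bases, but shares 4441 of these (71.0%) with *CG42507* and 424 (6.8%) with *Tsen34* on its own strand. The counting left out reads that fell on more than 1 gene, and *CG42507*, whose exons lie wholly within those of *Trl*, had 0 counts in all 56 libraries. The counts of *Trl* therefore came from the remaining 1389 bases (22.2%), and 1025 of these form a stretch from 14750242 to 14751266 that is present in 4 of the 10 transcripts. Another 4 transcripts of *Trl* hold no countable base, so its level is a lower limit that does not cover all of its isoforms. It is also given per countable exon base. The course of *Trl* below is likewise that of the countable bases. A change of the whole mRNA and a shift between isoforms cannot be told apart in it.

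The pioneer factor gene *zld* had its highest levels in the first 2 h and its lowest mean at 14 h. At 0 h, the replicates had 42.6, 42.0, 54.2 and 48.1 RPKM, and at 1 h they had 56.6, 56.7, 61.0 and 49.9 RPKM. At 2 h, the values were 60.1, 61.6, 55.7 and 62.5 RPKM, with a mean of 60.0 ± 3.02 (SD, n = 4), and overlapped those at 1 h. The 3 h libraries had 41.8, 36.8, 43.9 and 39.7 RPKM and all lay below those at 2 h. From 3 to 8 h the level formed a plateau, with means of between 33.2 ± 2.28 and 40.5 ± 3.01 RPKM (SD, n = 4). It then came down in 2 separate steps. The replicates had 31.0, 35.2, 35.1 and 31.3 RPKM at 8 h and 19.4, 18.1, 18.5 and 18.4 RPKM at 10 h, with no overlap. At 14 h they had 10.4, 4.07, 9.30 and 7.37 RPKM, below each of the 12 h values of 12.5, 17.4, 18.3 and 12.8 RPKM. The mean at 14 h, 7.78 ± 2.77 RPKM (SD, n = 4), was the lowest of the course, and the highest mean was 7.71 times larger. The value of 4.07 RPKM was that of replicate 2, which stood apart in the neuronal genes. The 14 h replicates overlapped those at 16, 18 and 20 h, so the low is not sharply placed. From 16 to 20 h the means were between 9.24 ± 1.83 and 10.5 ± 1.37 RPKM (SD, n = 4), and *zld* ended the course at 17.4% of its highest level.

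**Figure D1:**
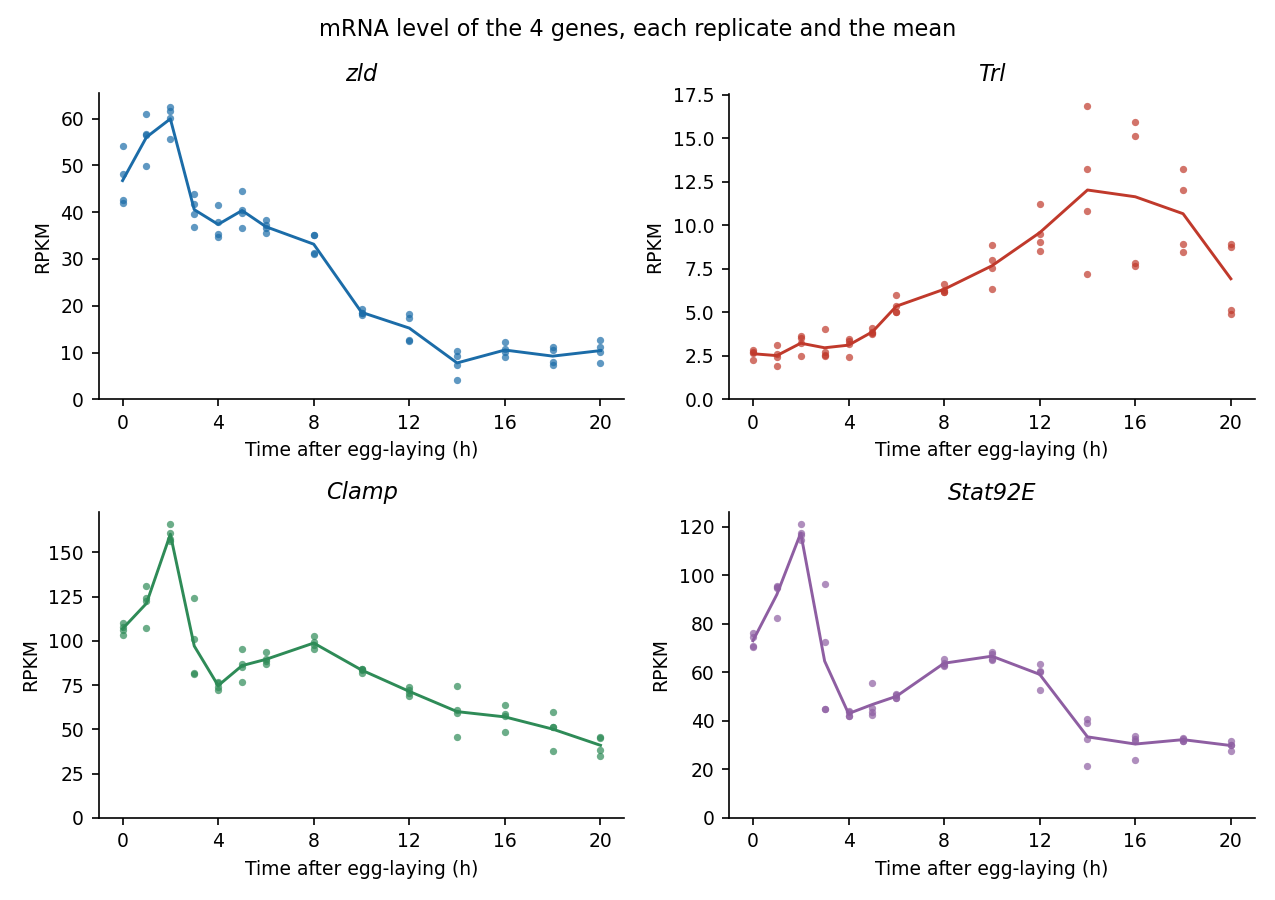
RPKM of *zld*, *Trl*, *Clamp* and *Stat92E* (vertical axes, 1 panel for each gene) against hours after egg-laying, with points for the 4 replicates and a line through their means. *zld*, *Clamp* and *Stat92E* have their highest mean at 2 h (60.0, 160 and 117 RPKM), whereas *Trl* has its highest at 14 h (12.0 RPKM) with a wide spread of replicates from 14 to 20 h.

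By its countable bases, the GAGA factor gene *Trl* took the opposite course, with its lowest levels in the first hours. Its replicates had 2.67, 2.70, 2.86 and 2.25 RPKM at 0 h and 2.41, 3.10, 2.62 and 1.92 RPKM at 1 h. The 4 h values were still 3.35, 3.19, 3.48 and 2.43 RPKM and overlapped those of every earlier time point. At 6 h they were 5.02, 5.99, 5.35 and 5.05 RPKM, all above each library of the first 5 h. Levels were higher again at 12 h, with 9.52, 8.54, 9.04 and 11.2 RPKM. From 14 h on the replicates spread widely, so that the late maximum is not sharply placed. The values were 13.2, 7.21, 10.8 and 16.8 RPKM at 14 h, with a mean of 12.0 ± 4.05 (SD, n = 4), 4.79 times that at 1 h. At 16 h replicates 2 and 3 had 16.0 and 15.1 RPKM, while replicates 1 and 4 had 7.65 and 7.84 RPKM. The muscle genes summed to 3190 and 3232 CPM in the former pair and to 5123 and 5272 CPM in the latter, and the part of this difference in the level of *Trl* was not tested. At 20 h, *Trl* had 8.76 and 8.93 RPKM in replicates 1 and 2 and 5.14 and 4.88 RPKM in replicates 3 and 4, the pair with high cuticle genes. Per countable exon base, the mean of *Trl* was 11.3 RPKM at 1 h and 54.2 ± 18.2 RPKM (SD, n = 4) at 14 h.

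*Clamp* had the highest mean RPKM of the 4 mRNAs at every time point, and its course held a maximum at 2 h and a second, lower one at 8 h. The replicates had 106, 103, 110 and 108 RPKM at 0 h, and 107, 124, 123 and 131 RPKM at 1 h. At 2 h they had 161, 156, 166 and 157 RPKM, all above every library of the other time points, with a mean of 160 ± 4.45 (SD, n = 4). The 3 h libraries were split, with 101 and 124 RPKM in replicates 1 and 2 and 81.0 and 82.1 RPKM in replicates 3 and 4. At 4 h the values were close together again, at 76.5, 72.5, 73.7 and 76.2 RPKM. The level at 8 h, with 99.2, 103, 95.7 and 97.5 RPKM, lay above all 4 h libraries and below all 2 h libraries. From there the means became smaller at each time point, down to 41.0 ± 5.34 RPKM (SD, n = 4) at 20 h, which is 25.6% of the highest. Its range, with a ratio of highest to lowest mean of 3.91, was smaller than the 7.71 of *zld*.

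*Stat92E* had the same maximum at 2 h, a low at 4 h and a second maximum at 8 to 10 h. Its replicates had 70.5, 70.9, 74.4 and 76.1 RPKM at 0 h and 116, 118, 114 and 121 RPKM at 2 h. The 1 h values in between were 82.4, 94.8, 95.2 and 95.4 RPKM and overlapped neither. At 3 h the libraries were split more strongly than those of any other member, with 72.6 and 96.1 RPKM in replicates 1 and 2 and 44.8 and 44.9 RPKM in replicates 3 and 4. The 4 h values of 44.2, 43.5, 42.2 and 41.9 RPKM lay just below the second pair. *Stat92E* then had 68.4, 67.6, 65.0 and 65.3 RPKM at 10 h, and the mean of 66.6 ± 1.68 (SD, n = 4) was over that of the 4 h embryo by more than the spread of either group. The 8 h values, between 62.7 and 65.3 RPKM, overlapped those at 10 h. With TMM-scaled libraries the mean was higher at 8 h (64.4 RPKM) than at 10 h (62.4 RPKM). At 14 h the values were 40.7, 21.3, 39.0 and 32.5 RPKM, all below the 12 h values of 52.6, 63.3, 60.6 and 59.9 RPKM. They stayed at means of between 29.8 ± 1.75 and 32.2 ± 0.583 RPKM (SD, n = 4) from 16 to 20 h, and the level at 20 h was 25.4% of the highest.

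By RPKM, the order *Clamp*, *Stat92E*, *zld*, *Trl* held for the means of 11 of the 14 time points. *Clamp* was above *Stat92E* in 56 of 56 libraries, although the replicate ranges of the 2 genes overlapped at 3 h. *Stat92E* was above *zld* in 56 of 56 libraries, with overlapping ranges at 5 h. *Trl* was above *zld* in 8 of 56 libraries, and its mean was the higher at 14, 16 and 18 h, but their ranges overlapped at these time points and at 20 h. Per countable exon base, the mean of *Trl* was above that of *zld* from 10 h on and above that of *Stat92E* from 14 h on. On that scale *Clamp* was above *Trl* in 50 of 56 libraries, and their ranges overlapped from 14 to 20 h. The balance between the pioneer factor and the others was not constant. The RPKM ratio of *zld* to *Stat92E* was 0.511 ± 0.0167 (SD, n = 4) at 2 h and 0.871 ± 0.0824 at 4 h. It was then 0.228 ± 0.0271 at 14 h and 0.348 ± 0.0544 in the 20 h embryo. The ratio of *zld* to *Clamp* was 0.500 ± 0.0305 at 4 h, 0.129 ± 0.0417 at 14 h and 0.254 ± 0.0342 at 20 h. That of *Trl* to *zld* was 0.0447 ± 0.00695 at 1 h, 1.62 ± 0.513 at 14 h and 0.666 ± 0.173 at 20 h. The means of these ratios thus had an extreme at 14 h and lay nearer to their earlier values at 20 h. The extreme is not sharply placed, since replicates overlapped with a neighbouring time point. *zld* to *Stat92E* was 0.191 to 0.255 at 14 h and 0.213 to 0.301 at 12 h. *zld* to *Clamp* was 0.0894 to 0.175 at 14 h and 0.157 to 0.210 at 16 h. *Trl* to *zld* was 1.16 to 2.28 at 14 h and 0.622 to 1.67 at 16 h.

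**Figure D2:**
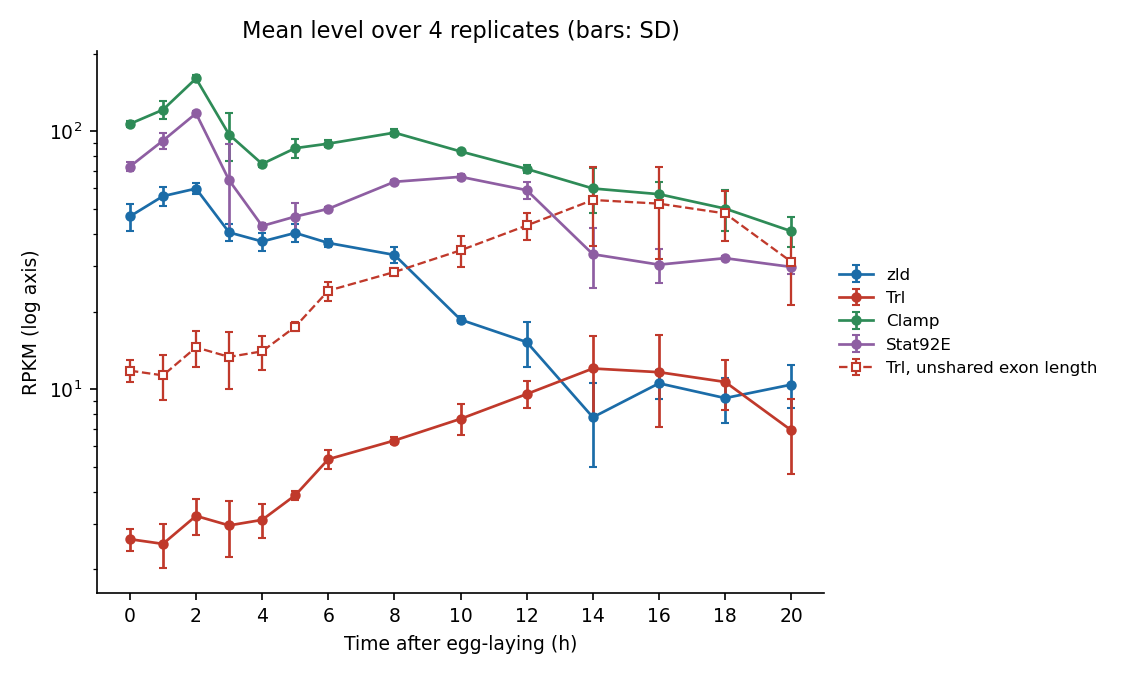
Mean RPKM ± SD of the 4 replicates (vertical axis, log scale) against hours after egg-laying for the 4 genes, with a dashed line for *Trl* per countable exon base. The mean of *Clamp* is the highest throughout, close to that of *Trl* per countable exon base at 14 h (60.0 and 54.2 RPKM), and *zld* and *Trl* meet between 12 and 20 h, where their means are from 7.78 to 15.2 and from 6.93 to 12.0 RPKM.

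The transition from maternal to zygotic RNA lies between 1 and 3 h, and it was tested step by step with edgeR on all libraries in a single fit. Between 1 and 2 h, all 4 activators rose, beside 69.4% of all tested genes called in either direction, 49.3% higher and 20.1% lower. The log2 fold changes were 0.49 (SE 0.14, adjusted p = 0.00241) for *zld* and 0.75 (SE 0.21, adjusted p = 0.00223) for *Trl*. They were 0.80 (SE 0.12, adjusted p = 8.59e-08) for *Clamp* and 0.75 (SE 0.16, adjusted p = 6.61e-05) for *Stat92E*. However, the median over all tested genes was 0.75 in this comparison, so relative to it the 4 genes differed by -0.26, -0.01, 0.05 and -0.0048. The TMM scaling factors of the 2 h libraries were between 0.774 and 0.795, at the lower end of the 0.781 to 1.28 found at the other time points. With library sizes alone, the median over all genes was 0.36, and the calls split into 3274 higher and 2750 lower genes in place of 5456 and 2219. On that scale *Clamp* (0.40) and *Stat92E* (0.35) were still called, whereas *zld* (0.10) and *Trl* (0.36) were not. In a fit of only the 8 libraries compared, *zld* changed sign to -0.045 and *Trl* was at 0.21, neither of them called, and with no filter on low counts *zld* was at 0.25 and not called. In RPKM, the 2 h libraries lay wholly above the 1 h libraries for *Clamp* and *Stat92E* only. Here and below, overlap of ranges was looked at in the 4 members only and not over all genes, so it does not set them apart.

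Between 2 and 3 h, *zld*, *Clamp* and *Stat92E* fell, beside 65.0% of all genes called, 31.1% higher and 34.0% lower. On the log2 scale, *zld* fell by 0.72 (SE 0.14, adjusted p = 2.15e-05), *Clamp* fell by 0.85 (SE 0.12, adjusted p = 1.87e-08) and *Stat92E* fell by 0.97 (SE 0.16, adjusted p = 7.91e-07). The median over all genes was -0.11, so these falls were larger than that of the typical gene, and replicates at 2 and 3 h did not overlap. *Trl* had a log2 fold change of -0.26 (95% interval -0.68 to 0.15) and was not called. Between 3 and 4 h, with only 4.58% of all genes called, *Clamp* fell by 0.45 (SE 0.12, adjusted p = 0.0150) and *Stat92E* by 0.68 (SE 0.16, adjusted p = 0.00705). These last calls were lost with only the 8 libraries compared (-0.45 and -0.68), that of *Clamp* also with library sizes alone (-0.38), and they depended on the 3 h libraries described next.

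Replicates 1 and 2 at 3 h stood apart from replicates 3 and 4 in their stage markers. A list of 22 early zygotic genes known as direct Zelda targets summed to 5802 and 7649 CPM in replicates 1 and 2 and to 1946 and 1762 CPM in replicates 3 and 4. The latter pair lay below the 4 h libraries, which had 1996 to 2218 CPM, and the former above the 3310 to 5175 CPM of the 2 h libraries. The blastoderm genes *nullo*, *eve*, *ftz* and *Sry-alpha*, which are also on that list, summed to 208 and 211 CPM against 107 and 67.4 CPM. At 4 h these genes had 148 to 182 CPM, and at 2 h 153 to 232 CPM. The maternal mRNAs summed to 52.9 and 56.1 CPM against 25.5 and 24.3 CPM, and the neuronal genes to 117 and 77.0 CPM against 169 and 181 CPM. *Clamp* and *Stat92E* were higher in the same pair as the Zelda targets, as given above, *Trl* was high in replicate 1 only (4.05 RPKM against 2.50 to 2.74 in the others), and *zld* had no such split. The part of stage in these differences was not tested. Fits without replicates 1 and 2 at 3 h were added after the data had been seen. In these, the falls of *Clamp* (-0.11) and *Stat92E* (-0.05) between 3 and 4 h were no longer called, and *zld*, *Clamp* and *Stat92E* still fell between 2 and 3 h. Leaving out replicate 1 or 2 at every time point also ended the calls of both genes between 3 and 4 h, with values of -0.43 and -0.21 for *Clamp* and -0.62 and -0.34 for *Stat92E*.

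**Figure D3:**
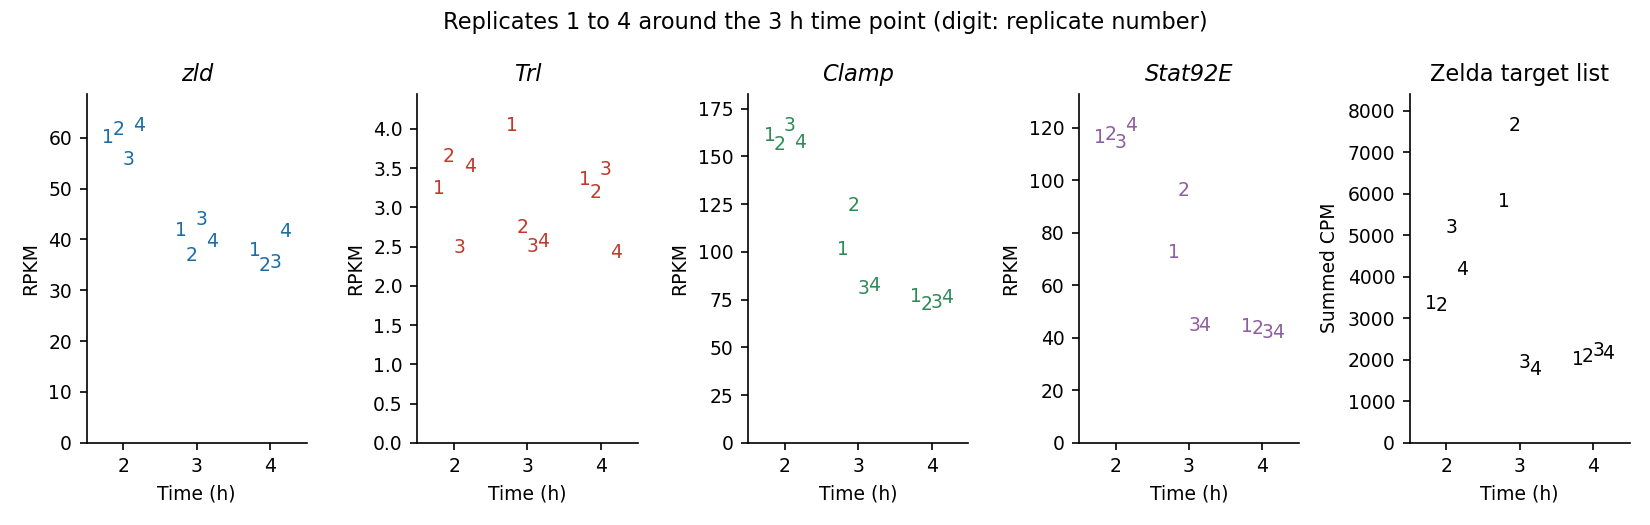
RPKM of the 4 activators and summed CPM of the Zelda target list (vertical axes) at 2, 3 and 4 h, with each library drawn as its replicate number. At 3 h, replicates 1 and 2 lie above replicates 3 and 4 for *Stat92E* (72.6 and 96.1 against 44.8 and 44.9 RPKM), *Clamp* and the target list, and not for *zld*.

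Across the whole transition, from 1 to 3 h, *Trl* was the only activator called by TMM scaling, beside 67.6% of all genes (42.4% higher and 25.1% lower). Its log2 fold change of 0.48 (SE 0.21, adjusted p = 0.0422) compares with a median of 0.36 over all genes. The values of *zld* (-0.23, 95% interval -0.51 to 0.05), *Clamp* (-0.05, -0.28 to 0.18) and *Stat92E* (-0.22, -0.53 to 0.09) were not called. In RPKM, all 3 h libraries of *zld* (36.8 to 43.9) lay below all 1 h libraries (49.9 to 61.0), while the ranges of the other 3 genes overlapped. The result turned both on scaling and on the 3 h libraries. With library sizes alone, *zld* (-0.47), *Clamp* (-0.32) and *Stat92E* (-0.51) were called as lower and *Trl* (0.24) was not called. Without replicates 1 and 2 at 3 h, *zld* (-0.63), *Clamp* (-0.78) and *Stat92E* (-1.24) fell, and *Trl* was at -0.19 and not called. The call of *Trl* was also lost with no filter on low counts (0.47), with only the 8 libraries compared (0.46), and without replicate 1 (0.25) or 4 (0.45) at every time point, and *Stat92E* was called as lower without replicate 2 (-0.50).

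Between 3 and 6 h, from the end of cellularization to the extended germ band, *Trl* rose by 0.72 on the log2 scale (SE 0.21, adjusted p = 0.00453). *Stat92E* fell by 0.53 (SE 0.16, adjusted p = 0.00469), while *zld* (-0.26, 95% interval -0.53 to 0.02) and *Clamp* (-0.26, -0.49 to -0.04, adjusted p = 0.0559) were not called. Of all tested genes 49.7% were called, 25.0% higher and 24.6% lower, with a median of 0.16. Without replicates 1 and 2 at 3 h, the rise of *Trl* kept its call, whereas *Stat92E* was at 0.03 and *Clamp* at 0.0044. *Stat92E* also lost its call without replicate 1 (-0.43) or 2 (-0.23), *Trl* without replicate 3 (0.61), both of them with only the 8 libraries compared (-0.71 and 0.53), and *Clamp* was called without replicate 3 (-0.40) or 4 (-0.38). None of the steps from 4 to 8 h was called for any member, beside 15.0% (4 to 5 h), 10.3% (5 to 6 h) and 9.89% (6 to 8 h) of all genes. The same was true of the step from 0 to 1 h (19.4% of all genes), where *Stat92E* had the largest value with 0.41 (SE 0.16, adjusted p = 0.0584).

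**Figure D4:**
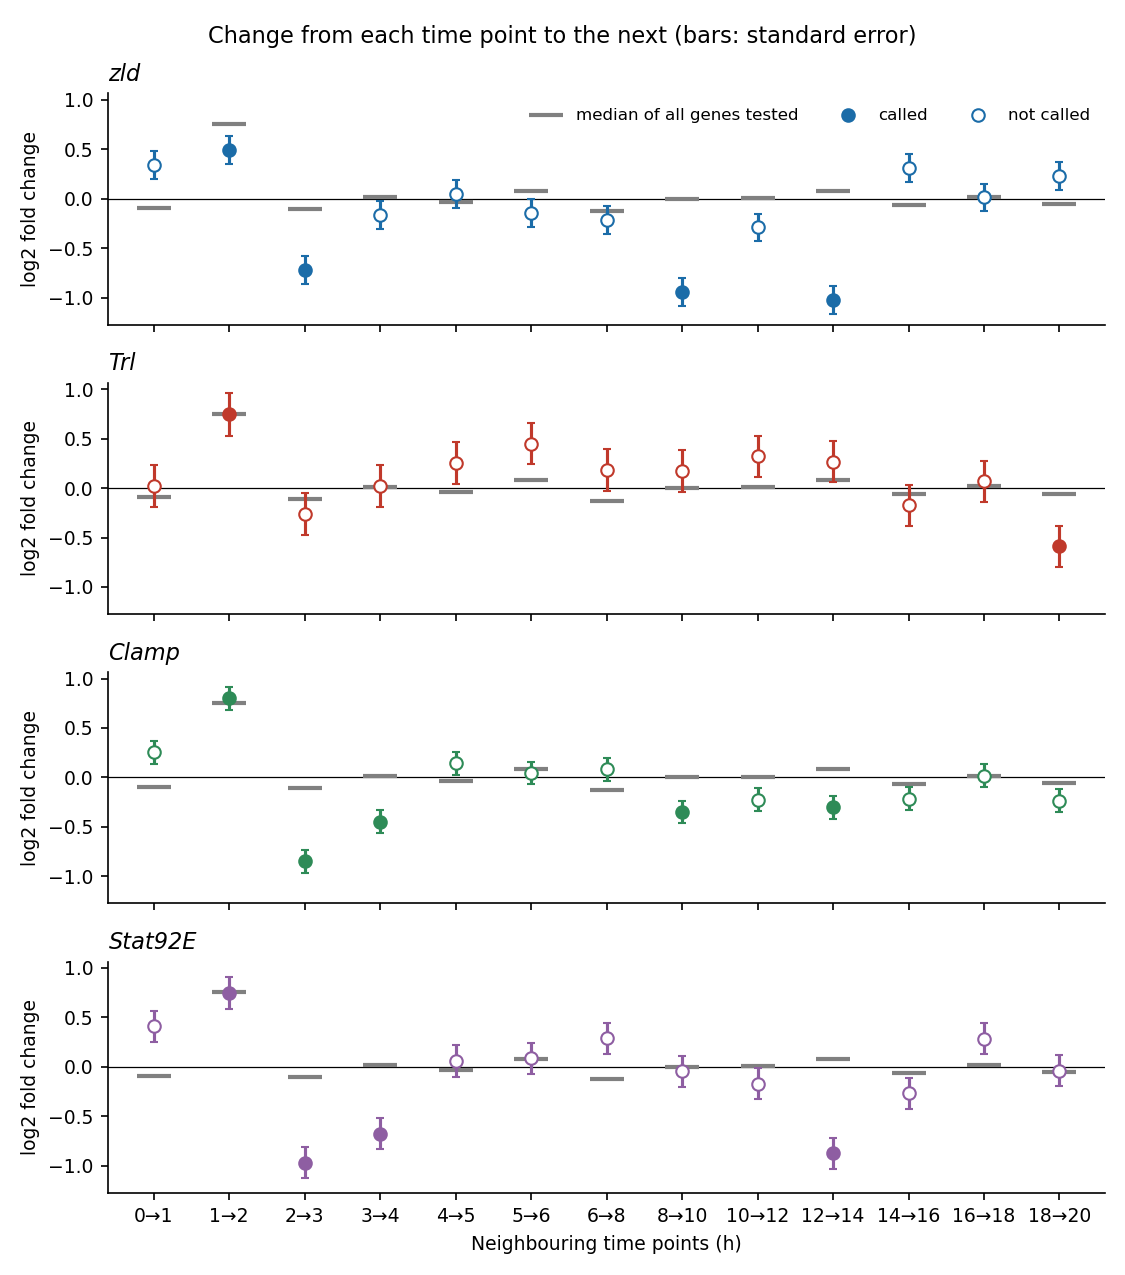
Log2 fold change ± SE of each activator (vertical axis) in the 13 comparisons of neighbouring time points (horizontal axis), with filled points for calls at an adjusted p under 0.05 and a grey bar for the median of all genes. From 1 to 2 h the points of all 4 are filled, around a median of 0.75, although *zld* and *Trl* are not called with library sizes alone (0.10 and 0.36) or with only 8 libraries (-0.045 and 0.21), and *zld* falls most from 8 to 10 h (-0.94) and from 12 to 14 h (-1.03).

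The span from 6 to 14 h, between the extended germ band and organ differentiation, parted the activators most clearly. The gene *zld* fell by 2.47 on the log2 scale (SE 0.15, adjusted p = 1.05e-18), a 5.54-fold change. *Clamp* fell by 0.79 (SE 0.12, adjusted p = 9.08e-08) and *Stat92E* by 0.80 (SE 0.16, adjusted p = 1.88e-05), which correspond to 1.73-fold and 1.75-fold changes. Over the same hours *Trl* rose 1.92-fold (log2 fold change 0.94, SE 0.21, adjusted p = 0.000121). In each of the 4 genes, the RPKM values at 6 and 14 h did not overlap, which was not counted over all genes. Calls were common among all genes as well, with 69.9% called, 35.9% higher and 34.0% lower, around a median of 0.12. These 4 calls and directions held in every other fit run, among them the one without replicate 2 at 14 h, and only a rule that also asked for a fold of at least 2 ended those of *Trl*, *Clamp* and *Stat92E*.

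The fall of *zld* was made in distinct steps. Between 8 and 10 h it fell by 0.94 (SE 0.14, adjusted p = 2.28e-06), 1.92-fold, and *Clamp* fell by 0.35 (SE 0.12, adjusted p = 0.0222). In this step 24.5% of all genes were called, with 1452 higher and 1260 lower by TMM but 1673 and 549 with library sizes alone. The call of *Clamp* was lost under several settings, with library sizes alone (-0.24) or without replicate 1 (-0.36), 2 (-0.32) or 3 (-0.36), whereas that of *zld* held in all of these. Between 12 and 14 h, *zld* fell by 1.03 (SE 0.14, adjusted p = 2.42e-07), *Stat92E* by 0.88 (SE 0.16, adjusted p = 2.01e-05) and *Clamp* by 0.30 (SE 0.12, adjusted p = 0.0302), beside 48.4% of all genes. Without replicate 2 at 14 h, *zld* and *Stat92E* still fell and *Clamp* (-0.25) was no longer called. The same loss for *Clamp* followed with library sizes alone (-0.25) and when replicate 1 (-0.28), 2 (-0.25) or 3 (-0.26) was left out throughout. *Trl* was not called in either step, with 0.17 (95% interval -0.24 to 0.58) and 0.27 (-0.14 to 0.68), and none of its single steps between 6 and 14 h was called. No member was called between 10 and 12 h (1.36% of all genes), 14 and 16 h (9.19%) or 16 and 18 h (1.33%).

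Towards hatching, between 14 and 20 h, the 2 genes at the ends of the earlier split moved back. The log2 fold change of *zld* was 0.55 (SE 0.14, adjusted p = 0.000841), a rise that was not called with only the 8 libraries compared (0.57), and *Trl* fell by 0.69 (SE 0.21, adjusted p = 0.00402). *Clamp* fell by 0.43 (SE 0.12, adjusted p = 0.00127), and *Stat92E* was at -0.03 (95% interval -0.34 to 0.28). In RPKM the 14 and 20 h libraries overlapped for all 4 genes. Of all genes, 62.2% were called, 28.5% higher and 33.7% lower, and with DESeq2's size factors the split turned to 3791 higher and 2731 lower genes from 3158 and 3724. On that scale *Clamp* was at -0.22 and not called, and *Stat92E* at 0.18 and not called. In the last step, between 18 and 20 h, *Trl* fell by 0.59 (SE 0.21, adjusted p = 0.0183), beside 48.1% of all genes (2625 higher and 2693 lower, or 3040 and 2005 with DESeq2's size factors). Without the 20 h replicates 3 and 4, which had the high cuticle genes, *zld* was still called between 14 and 20 h (0.65), but *Trl* (-0.33) and *Clamp* (-0.30) were not called, nor was *Trl* between 18 and 20 h (-0.30). Leaving out replicate 4 throughout ended the call of *Trl* between 14 and 20 h (-0.44), and leaving out replicate 1 (-0.55) or 3 (-0.39), or fitting only the 8 libraries compared (-0.55), that between 18 and 20 h.

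From the maternal load at 1 h to the late embryo at 20 h, *zld*, *Clamp* and *Stat92E* fell and *Trl* rose. On the log2 scale, *zld* fell by 2.41 (SE 0.15, adjusted p = 1.97e-19, 5.30-fold), *Clamp* fell by 1.54 (SE 0.12, adjusted p = 4.06e-16, 2.90-fold) and *Stat92E* fell by 1.59 (SE 0.16, adjusted p = 2.11e-12, 3.00-fold). The rise of *Trl* was by 1.45 (SE 0.21, adjusted p = 3.55e-08, 2.74-fold). These calls stood against 89.5% of all genes, 49.7% higher and 39.9% lower, with a median of 0.46, and were kept in all other fits. Neighbouring comparisons share the libraries of the time point between them, and the longer spans share libraries with each other, so agreement between comparisons is no separate evidence.

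The courses were also set beside each other and beside all genes as a description, over the 14 means of log2 CPM, which share libraries and depth. *Clamp* and *Stat92E* had a Pearson correlation of 0.95, *zld* and *Clamp* of 0.92, and *zld* and *Stat92E* of 0.85 (n = 14 time points). *Trl* was correlated negatively with each of the others, at -0.86 with *zld*, -0.69 with *Clamp* and -0.65 with *Stat92E* (n = 14). Genes that averaged 50 counts or more numbered 8414, with the 4 members included. Among these, the 3 other genes with the course most like that of *zld* were *CG6425* (0.98), *Ipo9* (0.98), an importin gene, and *CG18213* (0.98). *Ipo9* had 349 CPM at 2 h and 27.9 CPM at 14 h. For *Clamp* the nearest genes were *CG4119* (0.99), the ubiquitin ligase gene *Ube3a* (0.99) and *ebo* (0.99), and *CG4119* had 254 CPM at 2 h and 48.6 CPM at 20 h. *Stat92E* was followed most closely by *Nipped-B* (0.98), whose product loads cohesin, *sotv* (0.98), an enzyme gene of heparan sulfate synthesis, and *CG1513* (0.98). The low at 4 h was present in *Nipped-B* as well, with 814 CPM at 2 h, 329 CPM at 4 h and 425 CPM at 12 h. The neighbours of *Trl* were *bai* (0.98), *ninaD* (0.98) and *Itgbn* (0.98), an integrin subunit gene with 1.03 CPM at 1 h and 76.1 CPM at 14 h. These names were not stable, since none of the 3 neighbours of *zld* or of *Trl* was kept when Spearman's correlation was used.

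The lists of genes that act with or downstream of the activators were followed through the same comparisons. Of the 22 direct Zelda targets, 21 could be tested, and all 21 rose between 1 and 2 h, beside 49.3% of all genes, with a median log2 fold change of 4.52 against 0.75 for all genes. With library sizes alone, 19 of the 21 were called as higher in this step (median 4.13), beside 3274 of 11065 genes. Between 1 and 3 h, 19 rose and none fell (median 4.94), beside 42.4% and 25.1% of all genes, or 15 and 5 (median 3.40) without the 3 h replicates 1 and 2. Their largest rises in that span were of *sog*, an inhibitor of BMP signalling (log2 fold change 7.01, from 1.80 to 197 CPM), *twi*, the mesoderm regulator (6.16, from 2.85 to 173 CPM), *brk*, a repressor of BMP targets (6.09, from 1.55 to 91.1 CPM), and *ftz*, a pair-rule gene (5.74, from 2.41 to 105 CPM). During the plateau of *zld* between 3 and 6 h, 14 targets fell and none rose (median -1.36), beside 24.6% and 25.0% of all genes, which became 7 (median -0.62) without the 3 h replicates 1 and 2. In this span *bnk*, which acts in cellularization, went from 229 ± 284 to 0.124 ± 0.107 CPM (SD, n = 4), and *zen*, a dorsal homeobox gene, from 82.6 ± 87.5 to 0.295 ± 0.269 CPM. The 3 h libraries ranged from 0.368 to 586 CPM for *bnk* and from 8.52 to 189 CPM for *zen*. The CPM of *bnk* at 6 h lies under the value of 3 counts, so no fold is given. Between 6 and 14 h, 12 fell and none rose (median -1.87), beside 34.0% and 35.9% of all genes, among them the X-linked sex determination genes *sisA* (-4.44, from 33.1 to 1.76 CPM) and *sc* (-3.87, from 24.6 to 1.95 CPM) and the gap gene *gt* (-3.78, from 44.6 to 3.77 CPM).

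The JAK/STAT list held 11 genes, of which 10 were tested. Between 1 and 3 h, 5 rose and 5 fell, beside 42.4% and 25.1% of all genes, or 4 and 5 without the 3 h replicates 1 and 2. The ligand gene *upd1* rose by 5.15 on the log2 scale (from 2.01 to 59.0 CPM) and the inhibitor and pathway target *Socs36E* by 5.73 (from 2.15 to 97.1 CPM), whereas the related *Socs16D* fell by 2.76 (from 220 to 26.4 CPM). *upd2*, another ligand gene, was at 0.0264 mean CPM at 1 h, under the value of 3 counts, and at 6.94 CPM at 3 h. Between 2 and 3 h, when *Stat92E* fell, 4 of the 10 rose and 4 fell, beside 31.1% and 34.0% of all genes. The median of the list was 0.17, against -0.11 for all genes. Among the genes that fell was the Janus kinase gene *hop*, by 1.63 (from 330 to 116 CPM). Between 6 and 14 h, 7 fell and 2 rose (median -1.06), beside 34.0% and 35.9% of all genes, with falls of the ligand genes *upd1* (-2.24) and *upd2* (-3.67) and of the receptor gene *dome* (-1.79, from 271 to 90.6 CPM), and a rise of *et* (2.35, from 0.972 to 5.61 CPM), which encodes a receptor-like antagonist. Between 1 and 20 h, 3 rose and 6 fell, beside 49.7% and 39.9% of all genes, and *Socs36E* stood at 45.1 CPM at 20 h.

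Of 9 partners of the GAGA factor, 8 were tested. Between 6 and 14 h, when *Trl* rose, 7 of the 8 fell and none rose (median -1.67), beside 34.0% and 35.9% of all genes. Among these, *dre4* (-2.60, from 329 to 63.3 CPM) and *Ssrp* (-2.41, from 201 to 44.0 CPM) encode the subunits of the histone chaperone FACT, and *Iswi* (-2.34, from 670 to 154 CPM) and *Caf1-55* (-1.80, from 361 to 120 CPM) encode subunits of the remodeller NURF. Between 1 and 3 h, *lolal*, whose BTB protein binds the GAGA factor, rose by 1.51 (from 335 to 807 CPM) and *Iswi* by 1.19 (from 393 to 763 CPM), and 3 of the 8 rose and 3 fell in all, beside 42.4% and 25.1% of all genes. The whole span from 1 to 20 h had 7 falls and no rise (median -2.09), beside 39.9% and 49.7% of all genes, or 7 falls and 1 rise without the 20 h replicates 3 and 4.

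The list for CLAMP held 9 genes of the dosage compensation complex and of the histone locus body, all tested. Between 1 and 3 h, 4 rose and 5 fell, beside 42.4% and 25.1% of all genes. The gene *msl-2* (4.94, from 4.39 to 113 CPM) and the noncoding RNA *roX1* (5.02, from 21.5 to 599.7 CPM) rose, whereas *msl-1* (-1.40, from 492 to 156 CPM) and the histone locus gene *mxc* (-1.75, from 405 to 104 CPM) fell. Between 6 and 14 h, 8 of the 9 genes fell and none rose (median -1.26), beside 34.0% and 35.9% of all genes, with *mxc* at -2.31, *mute* at -1.80, *roX1* at -1.52 and *msl-2* at -1.35. A mixed list of 10 further regulators of early transcription had 2 rises and 4 falls in the same span (median -0.37). It holds *grh* and *opa*, which encode factors that open chromatin later than Zelda and which rose between 1 and 3 h by 5.43 (from 4.03 to 150 CPM) and by 6.50 (from 1.57 to 122 CPM). The maternal determinants *dl* (-5.97, from 133 to 1.77 CPM) and *bcd* (-3.47, from 195 to 14.4 CPM) fell in that span. In all these lists the counts for 6 to 14 h were within 1 gene of those given here under each alternative fit. For 14 to 20 h they were smaller without the 20 h replicates 3 and 4, with 6 in place of 12 Zelda targets and 1 in place of 6 JAK/STAT genes called as lower. Over all genes the lower calls were also fewer in that fit, 2037 of 11242 in place of 3724 of 11065.

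**Figure D5:**
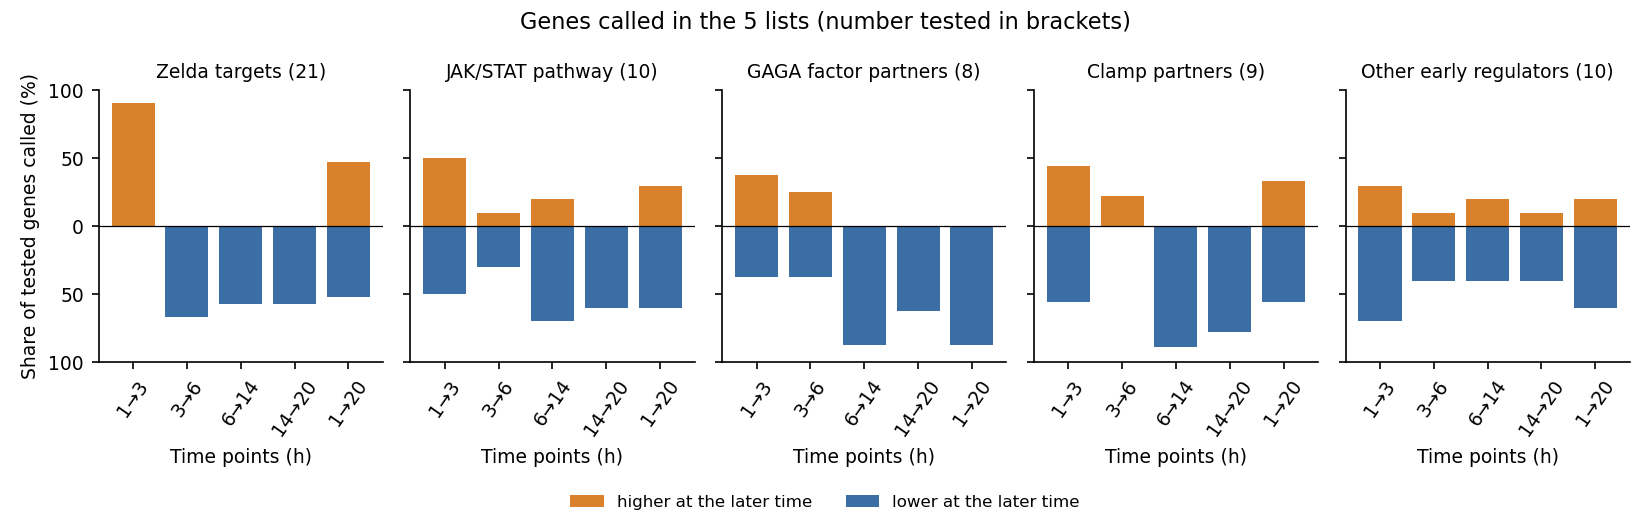
Share of the tested genes of 5 lists called higher (up) or lower (down) in 5 spans of the time course (percent of list members, 8 to 21 genes per list). From 1 to 3 h, 19 of 21 Zelda targets are higher, beside 42.4% of all genes. Without the 3 h replicates 1 and 2, 15 are higher and 5 lower. From 6 to 14 h, 12 of 21 Zelda targets, 7 of 8 GAGA factor partners and 8 of 9 CLAMP partners are lower and none is higher. Over all genes, which are not drawn, 34.0% are lower and 35.9% higher in that span.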

How the data were processed

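The authors isolated RNA with the RNeasy kit, made libraries with the TruSeq stranded mRNA kit, mapped single reads to the BDGP6 genome with STAR 2.4.0h and counted them with htseq-count (HTSeq 0.6.1p1) in union mode against Ensembl 79. SAMtools 1.2 and bcl2fastq 1.8.4 are also named in the submitters' processing notes. The deposited values are raw counts of reads per gene ID, 1 library per file, without normalization. The strand setting of the counting is not given in the sources used here. Of 135 genes whose exons lie wholly under exons of the opposite strand, 66 had a mean of over 1 count, against 15 of 444 genes wholly shared on the same strand. Lines that name no gene held 3.90% to 10.5% of each file and were left out.

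Exon lengths and symbols came from Ensembl 115, in which 17252 of 17558 gene IDs were found, so lengths can differ slightly from those used in counting. No promoter or protein sequences were used here, and the planned search for promoter motifs was not run.

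Time point and replicate were taken from the sample labels. Counts were tested in edgeR 4.0.16 (R 4.3.3) with its quasi-likelihood test, TMM normalization and the filterByExpr filter, which left 11065 genes. All 56 libraries entered 1 fit with a mean per time point. In 18 comparisons, 13 of neighbouring time points and 5 spans, p was adjusted by Benjamini-Hochberg over all tested genes, and a gene was called at an adjusted p under 0.05. The study gives no test between time points of the RNA. Counting limits cover counting error only.

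Named genes are the 4 members, at most 4 called genes per list and comparison in order of absolute log2 fold change that averaged 50 counts or more, and the 3 genes most like each member by Pearson correlation. The members, the lists (Zelda targets, JAK/STAT, partners of the GAGA factor and of CLAMP, further regulators, and markers of maternal RNA, blastoderm, neurons, muscle and cuticle) and the rule were chosen with earlier results of these data known. The genes *mod(mdg4)*, *nos* and *wupA* were on the lists and are not analysed here, and *upd3* and *Sry-alpha* did not pass the filter. Alternatives were DESeq2 1.42.0, its size factors in edgeR, library sizes alone, no filter, only the 8 libraries compared, a replicate block, each replicate left out, and a fold of at least 2. Python 3.11.15, pandas 2.3.3, numpy 2.4.6 and matplotlib 3.10.9 were used for tables and figures.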

Additional observations from a re-analysis of the deposited data

Results flagged for a closer look

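Dixon's test for a value far from the others of its time point was applied to the RPKM of the 4 activators, 56 groups of 4 libraries, and picked out 2. Chance alone picks out about 1 in 20 groups. *Trl* at 3 h was at 4.05 RPKM in replicate 1 and between 2.50 and 2.74 RPKM in the others, so that the gap took up 0.845 of the range. *Stat92E* at 1 h was at 82.4 RPKM in replicate 1 and between 94.8 and 95.4 RPKM in the others, with a gap of 0.953 of the range.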

How the results depend on the processing

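Of 224 values for the 5 spans under other settings, 183 kept their direction and call, 16 lost and 13 gained a call, and 12 changed sign. Of 159 values for the called steps between neighbouring time points, 130 kept both, 28 lost the call and 1 changed sign, which was *zld* from 1 to 2 h in a fit of only those 8 libraries (-0.045). The cause of each change was not tested beyond what the setting itself leaves out. All calls of *zld* from 8 to 10 h and from 12 to 14 h held except under the rule of a fold of at least 2 (8 to 10 h). Of 52 member steps, 37 were not called, with log2 fold changes between -0.29 and 0.45, and 11 of these were called and 10 changed sign under at least 1 setting.

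From 1 to 3 h, values with changed calls or signs were, with library sizes alone, -0.47 for *zld*, 0.24 for *Trl*, -0.32 for *Clamp* and -0.51 for *Stat92E*, and without the 3 h replicates 1 and 2, chosen after seeing the data, -0.63, -0.19, -0.78 and -1.24. *Trl* was at 0.47 with no filter, 0.46 with only 8 libraries and 0.48 under the fold rule, and *Clamp* at 0.043 with DESeq2 and 0.045 with its size factors. Leaving out each replicate gave 0.25 to 0.63 for *Trl*, -0.21 to 0.088 for *Clamp* (above 0 without replicate 3 or 4) and -0.50 to -0.013 for *Stat92E*. From 3 to 6 h, only 8 libraries gave -0.45 for *zld*, 0.53 for *Trl* and -0.71 for *Stat92E*, DESeq2 and its size factors -0.28 and no filter -0.36 for *Clamp*, the fold rule 0.72 for *Trl* and -0.53 for *Stat92E*, and the fit without the 3 h replicates 1 and 2 0.0044 for *Clamp* and 0.029 for *Stat92E*. Leaving out each replicate gave 0.61 to 0.99 for *Trl*, -0.40 to -0.079 for *Clamp* and -0.72 to -0.23 for *Stat92E*. From 6 to 14 h, only the fold rule ended calls, at 0.94 for *Trl*, -0.79 for *Clamp* and -0.80 for *Stat92E*. From 14 to 20 h, *zld* lost its call with only 8 libraries (0.57) and under the fold rule (0.55). *Trl* lost it under the fold rule (-0.69) and without the 20 h replicates 3 and 4 (-0.33, chosen after seeing the data). *Clamp* lost it with DESeq2 and its size factors (-0.22), under the fold rule (-0.43) and without those replicates (-0.30). *Stat92E* changed sign with DESeq2 and its size factors (0.18) and with no filter (0.049). Leaving out each replicate gave -0.86 to -0.44 for *Trl* and -0.15 (without 14 h replicate 2) to 0.12 for *Stat92E*. From 1 to 20 h nothing changed.

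With the replicate number as a replicate block, every one of the 20 span results and 15 called steps kept its call, for example -2.48 for *zld* and 0.96 for *Trl* from 6 to 14 h. Deviations of libraries with the same number had a mean correlation of 0.00619 (-0.566 to 0.535), and those with other numbers of -0.00204 (-0.594 to 0.57). On average, libraries with the same number were thus hardly more alike. A batch shared by some time points only could be missed by such a mean.

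The count of all called genes moved by more than 1.5 times under several settings. From 3 to 4 h it was 507, and 331 with library sizes alone, 0 with only 8 libraries or without replicate 1 or 2, 856 without replicate 4, 200 under the fold rule and 44 without the 3 h replicates 1 and 2. That last fit gave 2984 in place of 5494 from 3 to 6 h. From 18 to 20 h it was 5318, and 0 with only 8 libraries, 2782 without replicate 3 and 804 without the 20 h replicates 3 and 4, which also gave 4585 in place of 6882 from 14 to 20 h. From 0 to 1 h it was 2142, and 708 without replicate 1, 513 without replicate 3, 805 with only 8 libraries and 203 without the 0 h replicates 1 to 3, a fit with a single 0 h library that is assumed to vary like the other groups. The remaining steps with few calls varied likewise.

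Levels also depended on scaling. With TMM-scaled libraries the highest means were 76.3 RPKM for *zld*, 204 for *Clamp* and 149 for *Stat92E*, and the ratios of highest to lowest mean were 10.9, 5.06 and 5.97. In CPM, without length, the order of the 4 genes held at 2 time points in place of 11. Of the 3 genes most like each member, 0 (*zld*), 0 (*Trl*), 1 (*Clamp*) and 2 (*Stat92E*) were kept with Spearman's correlation, and 3, 0, 1 and 1 with library-size CPM.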
